A study of Mus musculus with 12 samples.

Results

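The transcriptome of unstimulated osteoclasts (OCsCtr) was described from 4 of the 12 bulk RNA-seq. libraries of the series, chosen by their group label alone, without any comparison with the other 8 libraries. The study asked how eosinophils act on osteoclasts, and the OCsCtr cultures are its untreated group, which received neither eosinophils nor eosinophil supernatant. Bone marrow derived monocytes (BMMs) from femur and tibia of BALB/c WT mice, with no transgene or deleted allele, were differentiated in vitro and harvested on day 3. The medium held M-CSF (5 ng/µL) together with RANKL (10 ng/µL) according to the labels, but the methods of the study give amounts per mL and, from day 0 on, a larger number for M-CSF than the labels, so the sources differ in the unit and in the amount of M-CSF. The starting cells were nonadherent marrow cells kept overnight with M-CSF, a bulk population that can hold other marrow cells beside monocytes. The age of the mice is not in the labels, and whether the 4 libraries came from separate mice is not stated there, although the methods call them biological replicates.

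Osteoclasts are multinucleated cells of the monocyte lineage that resorb bone. M-CSF, through its receptor CSF1R, keeps the precursors alive, and RANKL, through its receptor RANK (Tnfrsf11a), drives them through TRAF6, AP-1 and NFATc1 to fuse and to switch on the genes of resorption. The mature cell seals off a patch of bone with an actin ring, acidifies it with a vacuolar proton pump and a chloride channel, and digests the matrix with secreted enzymes such as cathepsin K.

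Total counts were 28014177, 33997276, 34266435 and 31793191 in OCsCtr 1, 2, 3 and 4. The deposited values were raw counts per gene, which were scaled to a library total of 1000000 (CPM), and divided by gene length before the same scaling (TPM) where levels of different genes were compared. A gene was detected in a library from 3 counts on, which corresponds to 0.0875 to 0.107 CPM and covers counting error only. Between 15054 and 15159 genes were detected per library, 13398 in all 4 libraries, and 29074 of the 47643 genes of the table had 0 counts in every one of the 4. Library OCsCtr 1 had the largest share of mitochondrial transcripts, with 1.43% of its counts against 0.640%, 0.689% and 0.487% in OCsCtr 2, 3 and 4. Xist was present at 8.64 to 11.5 CPM and the Y-linked genes Ddx3y, Eif2s3y, Kdm5d and Uty had 0 counts in all 4 libraries. As the samples are bulk RNA, fewer cells of a type and less RNA per cell cannot be told apart.

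The label as osteoclasts was checked against marker genes. All 11 genes of the resorption list, all 16 of the signalling and transcription list and all 9 of the fusion list were detected in each of the 4 libraries. So were 11954 of 21971 protein-coding genes, and all 13 genes of the neutrophil list and all 13 of the dendritic cell list. Detection alone therefore does not identify the cells. Summed over members, the resorption list held 33019 ± 2403 CPM (SD, n = 4), or 3.30% of all counts. The signalling list held 5044 ± 94.1 CPM and the fusion list 5701 ± 262 CPM. Markers of precursors and of other marrow cells were also present, at the levels given further below.

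Transcripts of bone resorption were among the most abundant of the cell. By CPM, the translation elongation factor Eef1a1 was the highest gene with 14018 ± 483 CPM, followed by Ctsk with 12181 ± 923 CPM, Mmp9 with 8483 ± 810 CPM, the ferritin light chain Ftl1 with 8389 ± 300 CPM and Acp5 with 7196 ± 595 CPM. The intermediate filament gene Vim (6464 CPM), the proton pump subunit gene Atp6v1b2 (5054 CPM), Tpt1 (4873 CPM), the ribosomal protein gene Rpsa (4422 CPM) and the lysozyme gene Lyz2 (4277 CPM) completed the 10 highest. Ctsk, Mmp9, Acp5 and Atp6v1b2 among these are genes of the resorption machinery. The counting error was far below the spread between libraries, since Ctsk took 1.08% of the counts of OCsCtr 1 (exact 95% binomial interval 1.08 to 1.09%) and 1.28% of those of OCsCtr 4 (1.28 to 1.29%).

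Per length, Ftl1 came first. Its level was 16343, 17022, 17835 and 17381 TPM in OCsCtr 1, 2, 3 and 4, above Ctsk in each library. Ctsk followed with 14243, 16052, 16778 and 16739 TPM, then the ribosomal protein gene Rplp1 with 13510 ± 488 TPM, Eef1a1 with 11134 ± 335 TPM, the ferritin heavy chain Fth1 with 9567 ± 377 TPM and Acp5 with 8838 ± 694 TPM. The order of these 6 genes was the same in all 4 libraries, but the libraries of Ftl1 and Ctsk overlapped, as did those of Fth1 and Acp5. With the union of exons of GENCODE vM21 as length, Ctsk (18078 TPM) and Rplp1 ranked above Ftl1, and Fth1 and Rps12 were no longer among the 10 highest genes, where Gm8730 and Cstb took their place, so this order depends on the length used. The processed pseudogene Gm15772 of Rpl26 (6818 TPM), Lyz2 (6690 TPM), Rps12 (5860 TPM) and the Atp6v0c pseudogene Gm15487 (5855 TPM) completed the list, and within the pairs Gm15772 and Lyz2, and Rps12 and Gm15487, each gene was higher in 2 of 4 libraries. Genes shared by the lists of the 10 highest by CPM and by TPM numbered 5, and 62 genes were shared by the lists of the 100 highest.

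**Figure D1:**
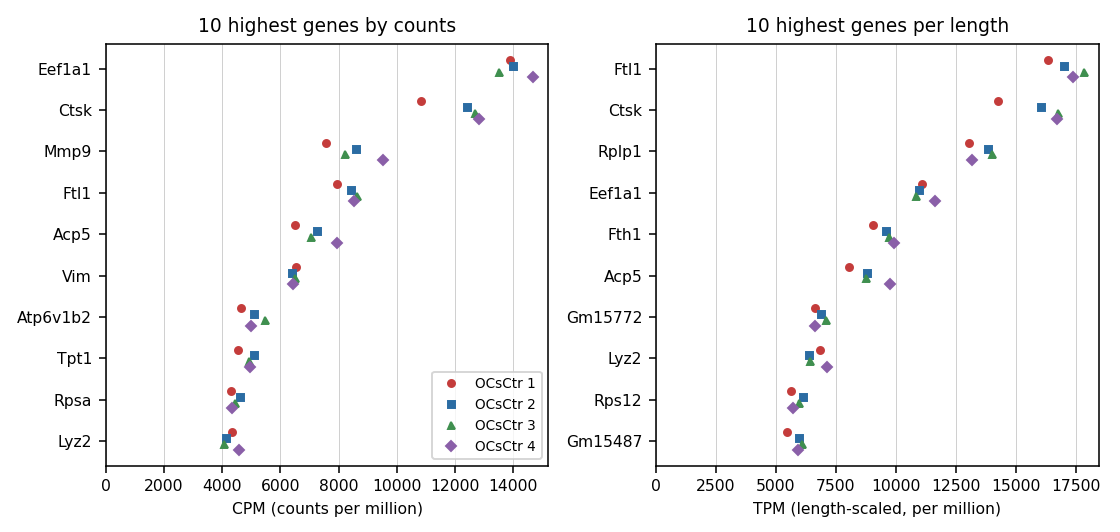
The 10 highest genes by CPM (left) and by TPM among genes of at least 200 bases (right), both axes linear from 0, with 1 point per OCsCtr library. Ctsk lies between 10822 and 12829 CPM and between 14243 and 16778 TPM, and its lowest point in both panels is OCsCtr 1.

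The counts were spread over many genes beneath this top. The 10 highest genes of each library held 7.57% ± 0.270 of the counts and the 100 highest 25.3% ± 0.372, and 464 to 496 genes were needed to reach 50% of the counts. The median level of the 13398 genes detected in all 4 libraries was 8.0 TPM, and 1382 genes, or 10.3% of those detected, had at least 100 TPM. Genes of cytosolic ribosomal proteins held 9.23% ± 0.266 of the counts with 85 of 86 detected in all 4 libraries, and made up 30 of the 100 highest genes by CPM and 36 of the 100 highest by TPM. Their median was 1199 TPM, while Rpl3l had 0.747 TPM and Rpl10l had 0 counts. Rpl29 was listed at 1.11 TPM, but 99.4% of the summed CPM of Rpl29 and its pseudogenes lay on the pseudogenes, so its level is uncertain.

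Within the resorption list, the levels differed widely. Ctsk (chr3:95499256-95509362, + strand, GRCm38), which encodes cathepsin K, the protease that cuts bone collagen, was the highest in each library on the TPM scale. Acp5 (chr9:22126731-22135746, − strand), which encodes tartrate-resistant acid phosphatase, the enzyme stained to identify osteoclasts, had 8045, 8806, 8763 and 9738 TPM. Mmp9 (chr2:164940780-164955850, + strand), a secreted gelatinase, had 4264, 4756, 4654 and 5308 TPM. The libraries of these 3 genes did not overlap with each other, and in each of the 3 the lowest value was that of OCsCtr 1.

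Genes for the transport of acid followed at lower levels. Atp6v0d2 (chr4:19876841-19922605, − strand), a proton pump subunit also needed for fusion, had 1149, 1239, 1282 and 1238 TPM. Tcirg1, which encodes the osteoclast a3 subunit of the pump, had 662, 718, 773 and 719 TPM. Car2, carbonic anhydrase II, which supplies the protons, had 162, 198, 221 and 192 TPM, and Mmp14, a membrane-bound metalloproteinase, had 186, 190, 189 and 182 TPM, so that the libraries of Car2 and Mmp14 overlapped. The chloride channel gene Clcn7 had 170 ± 11.6 TPM, the bicarbonate exchanger gene Slc4a2 had 112 ± 2.87 TPM and the calcitonin receptor gene Calcr had 76.9 ± 7.21 TPM. Ostm1, the partner of the channel ClC-7, was the lowest of the list with 38.4 ± 1.46 TPM.

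Ctsk and Acp5 were the 2 highest genes of the list, and their promoters are shown because PU.1, MITF and NFATc1, whose transcripts are described below, are known to act on osteoclast genes. The sequences are RefSeq windows on GRCm38 with 250 bases before and 50 from the annotated start, printed 5′ to 3′ on the strand of the gene, with motif matches on either strand in capitals. For Ctsk the window is chr3:95498960-95499259 on the + strand, and for Acp5 the window of the most downstream of 3 annotated starts is chr9:22130549-22130848 on the − strand.
Ctsk: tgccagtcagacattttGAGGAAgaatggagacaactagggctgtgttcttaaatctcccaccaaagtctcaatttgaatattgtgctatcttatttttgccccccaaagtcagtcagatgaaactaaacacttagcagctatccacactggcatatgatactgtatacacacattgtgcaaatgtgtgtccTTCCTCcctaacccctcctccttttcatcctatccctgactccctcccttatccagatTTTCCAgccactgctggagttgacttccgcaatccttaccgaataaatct
Acp5: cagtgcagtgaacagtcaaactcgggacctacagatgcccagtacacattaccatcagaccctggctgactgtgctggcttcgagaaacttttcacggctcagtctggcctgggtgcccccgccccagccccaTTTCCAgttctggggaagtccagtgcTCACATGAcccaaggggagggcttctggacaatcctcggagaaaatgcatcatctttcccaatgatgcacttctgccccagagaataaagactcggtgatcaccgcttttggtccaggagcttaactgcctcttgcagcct
Searched on both strands were the TATA box (letters TATAAA), the AP-1 motif (letters TGANTCA), the E-box (letters CACGTG), the PU.1 motif (letters GAGGAAGT) with its core (letters GAGGAA), which lies within it, the MITF motif (letters TCATGTGA) and the NFAT core (letters TGGAAA). In the Ctsk window, GAGGAA began 233 bases before the start, TTCCTC, its reverse complement, began 58 bases before the start, and TTTCCA, the reverse complement of TGGAAA, began at the first transcribed base. In the Acp5 window, TTTCCA began 117 bases before the start and TCACATGA, the reverse complement of TCATGTGA, began 91 bases before it. Of all 32817 windows of this length, 28.3% held GAGGAA, 21.4% held TGGAAA and 0.987% held TCATGTGA on either strand. The other motifs occurred in 3.20% (GAGGAAGT), 7.81% (TGANTCA), 7.15% (CACGTG) and 13.6% (TATAAA) of windows, and none of them was in the Ctsk or the Acp5 window shown. The windows of 2 other annotated Acp5 starts held no match to any of these motifs. A match is a description of letters and was not tested for binding.

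The vacuolar ATPase, which pumps protons into the resorption space and into lysosomes, was expressed as an almost complete set. Of its 25 subunit and accessory genes, 20 were detected in all 4 libraries, and together they held 18744, 20509, 21404 and 20196 CPM in OCsCtr 1, 2, 3 and 4, or 2.02% of the counts. The highest members per length were Atp6v1g1 (2007 ± 129 TPM), Atp6v1b2 (1887 ± 133 TPM), Atp6v0b (1355 ± 88.9 TPM), Atp6v0d2 and Atp6v1f (1137 ± 75.3 TPM). Atp6v0a4, Atp6v1b1, Atp6v1e2 and Atp6v1g3, the forms known from kidney, testis or other tissues, had 0 counts in all 4 libraries. Atp6v1c2 was detected in OCsCtr 4 alone.

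Where a subunit has several genes, a single form carried most of the transcripts. Tcirg1 made up 95.9%, 96.8%, 96.7% and 96.3% of the summed TPM of the a subunit genes (Tcirg1, Atp6v0a1, Atp6v0a2 and Atp6v0a4). Atp6v0d2 made up 75.5%, 77.3%, 77.7% and 76.3% of the d subunit genes, the remainder being the widely expressed Atp6v0d1. Atp6v0e made up 98.3% ± 0.193 of the e subunit genes. These shares differed little between libraries, although the summed level was lowest in OCsCtr 1.

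The c subunit gene Atp6v0c was an exception in level. It was listed at only 18.5 TPM, while its processed pseudogene Gm15487 was listed at 5855 TPM, so that 97.7% of the summed CPM of Atp6v0c and its pseudogenes lay on the pseudogenes. Reads of a gene and of a near-identical copy can be split by the aligner and the counter, and how reads that map to several places were treated is not given in the sources used here. The level of Atp6v0c is therefore uncertain.

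**Figure D2:**
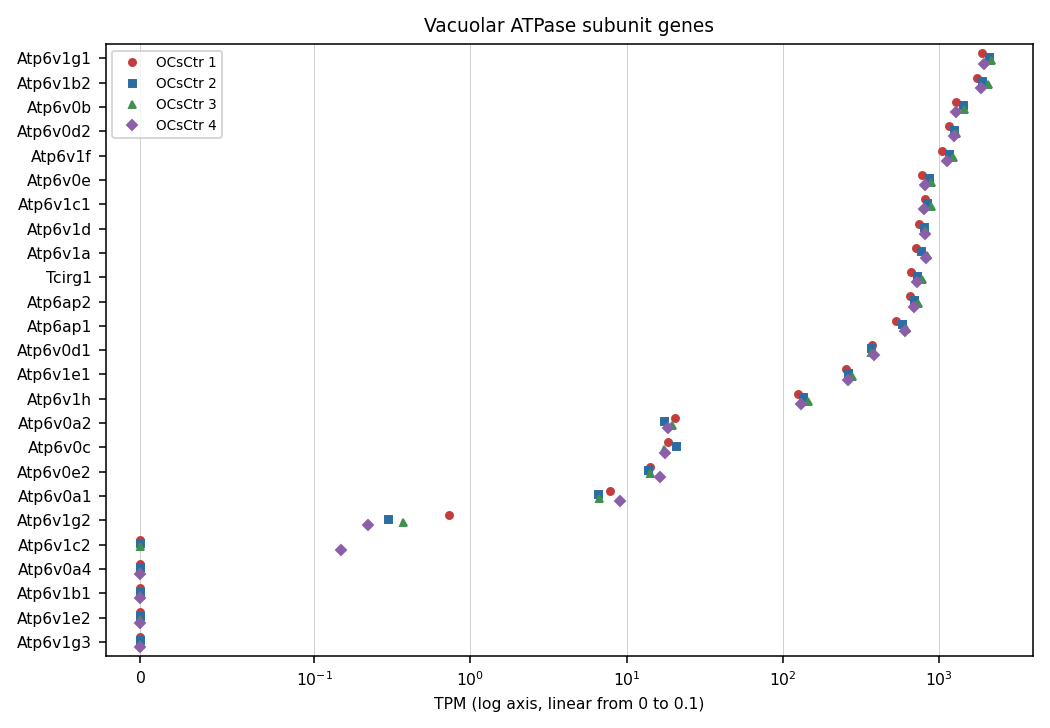
TPM of the 25 vacuolar ATPase genes, 1 point per OCsCtr library, on an axis that is logarithmic above 0.1 TPM and linear below it. The members from Atp6v1g1 (2007 TPM on average) to Atp6v1h lie over 100 TPM in each library, and the 4 genes at the bottom have 0 counts in all 4 libraries.

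Fusion genes were led by Dcstamp (chr15:39745932-39760934, + strand), the membrane protein required for fusion of precursors, with 1074, 1283, 1465 and 1119 TPM. Dcstamp and Atp6v0d2 overlapped, each being higher in 2 of 4 libraries. The tetraspanin gene Cd9 had 774 ± 29.9 TPM, Ocstamp, a second gene required for fusion, had 285 ± 19.8 TPM, and Sirpa, which encodes the receptor for CD47, had 223 ± 19.3 TPM. Cd81, another tetraspanin gene, was the lowest of the list with 20.6 ± 2.03 TPM.

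Receptors and adaptors of osteoclast signalling spanned a wide range. Tyrobp, which encodes the adaptor DAP12, was the highest with 2355, 2623, 2488 and 2455 TPM, and Fcer1g, the second ITAM adaptor, had 428, 470, 502 and 508 TPM. Their partner receptors were lower, Oscar with 147 ± 16.7 TPM and Trem2 with 75.2 ± 3.00 TPM. Csf1r had 505 ± 22.9 TPM, although an exon of it overlaps Hmgxb3. The RANK gene Tnfrsf11a had 40.3, 36.4, 39.0 and 39.3 TPM, and Traf6, its adaptor, had 21.6 TPM. Thus the transcript of the M-CSF receptor exceeded that of the RANKL receptor in each library.

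Among the transcription factors of the same list, Spi1, which encodes PU.1, was the highest with 520, 496, 502 and 487 TPM, and its libraries overlapped with those of Csf1r and Fcer1g. Nfatc1, the factor that switches on osteoclast genes, had 107, 107, 103 and 102 TPM, and its libraries overlapped with those of the AP-1 gene Fosl2 (105 ± 3.58 TPM). Fos had 96.5 ± 7.70 TPM, Prdm1, a repressor of genes that block osteoclasts, had 30.0 ± 1.08 TPM, and Mitf had 13.9 TPM, the lowest of the 16 genes. The kinase gene Src, needed for the ruffled border, had 77.5 ± 3.64 TPM.

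The sealing zone list held 5785 ± 168 CPM with 11 of 11 genes detected. Actb, the cytoplasmic actin gene, led with 1826 ± 98.1 TPM, followed by the gelsolin gene Gsn with 601 ± 34.5 TPM. Itgb3 and Itgav encode the vitronectin receptor by which osteoclasts hold on to bone, and had 174 ± 11.2 and 135 ± 8.38 TPM. Vcl, the vinculin gene, was the lowest with 19.2 ± 0.852 TPM. Among all integrin genes, Itgav held 52.9% of the summed TPM of 18 alpha chains, while Itgb3 was below the leukocyte chain Itgb2 (294 TPM) and close to Itgb1 (176 TPM).

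A single member also dominated other families of resorption. Ctsk made up 70.5%, 74.4%, 73.8% and 71.3% of the summed TPM of 14 lysosomal cathepsin genes, ahead of Ctsd (1834 ± 140 TPM), Ctsz (1079 ± 18.4 TPM) and Ctss (981 ± 135 TPM), and Ctsw was the lowest with 0.0600 TPM. Mmp9 made up 95.2% of the TPM of 23 matrix metalloproteinase genes, of which 13 were detected in all 4 libraries, Car2 made up 78.6% of 16 carbonic anhydrase genes, and Clcn7 made up 79.0% of 9 chloride channel genes. Genes of cysteine protease inhibitors were also high, with Cstb at 5282 TPM and Cst3 at 2951 TPM. Ckb, the brain-type creatine kinase, which supplies ATP, had 4275, 4892, 4966 and 5046 TPM and made up 99.6% of the TPM of 4 creatine kinase genes.

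Of 20 further osteoclast-associated genes, 19 were found among the genes counted. Each of the 19 had at least 1 CPM on average, and 12 had over 100 TPM, against 10.3% of the genes detected in all 4 libraries. This list was drawn up after values had been seen, so the 12 describes the chosen genes and supports nothing further. Beside Ckb and Cst3, the highest were the chemokine gene Ccl9 (1787 ± 134 TPM), the sugar phosphate transporter gene Slc37a2 (733 ± 24.7 TPM), Slc9b2 (669 ± 45.3 TPM) and the chemokine receptor gene Ccr1 (614 ± 56.5 TPM). Genes of glycolysis held 14364 CPM, with Pkm (2264 ± 75.3 TPM), Aldoa (1676 ± 87.3 TPM) and Ldha (1557 ± 28.1 TPM) as the highest. Gapdh was listed at only 38.0, 87.7, 65.8 and 90.6 TPM, and 85.1% of the CPM of Gapdh and its pseudogenes lay on the pseudogenes.

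Genes of the monocytes and macrophages from which osteoclasts form were present. All 18 genes of the monocyte and macrophage list were detected in the 4 libraries, with a sum of 6910 ± 366 CPM. Lyz2, which encodes lysozyme M, had 6821, 6390, 6434 and 7116 TPM, and Cd68, a lysosomal membrane protein gene, had 1195 ± 43.7 TPM. Csf1r, Adgre1, which encodes F4/80 (152 ± 19.8 TPM), and Cd14 (145 ± 4.28 TPM) followed. Ccr2, Itgam and Cx3cr1, receptors and adhesion molecules of circulating monocytes, were lower, with 19.0, 16.6 and 10.1 TPM. Mertk was the lowest with 0.769 TPM. Thus 5 of the 18 genes lay over 100 TPM and the median of the list was 14.4 TPM, against 193 TPM for the resorption list and 8.0 TPM for all genes detected in all 4 libraries.

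Genes that block osteoclast formation were all detected and mostly low, with 143 ± 3.26 CPM over 7 genes. Id2 (94.4 ± 5.26 TPM) and Id3 (42.5 ± 2.45 TPM), inhibitors of helix-loop-helix factors, were the highest. Irf8, which encodes a macrophage factor that RANKL is known to lower during differentiation, had 4.96 ± 0.785 TPM. Tnfrsf11b, which encodes the RANKL decoy osteoprotegerin, was the lowest with 2.24, 0.531, 0.394 and 0.837 TPM, highest in OCsCtr 1. In haematopoietic progenitor genes, the sum was 31.3 CPM, with Ly6a (10.8 ± 1.49 TPM) and Cd34 (4.51 ± 0.986 TPM) as the highest and Mecom at 0 counts.

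Some transcripts of dividing cells were present. The cell cycle list held 1831 CPM in OCsCtr 1 and 1638 ± 133 CPM on average, with 17 of 17 genes detected. The replication clamp gene Pcna had 275, 241, 260 and 248 TPM, the helicase gene Mcm5 had 98.6 ± 10.7 TPM and the cell cycle inhibitor gene Cdkn1a had 82.0 ± 3.48 TPM. Genes of mitosis were also present, with the kinase gene Cdk1 at 63.0 ± 4.27 TPM, Birc5 at 53.2 ± 3.91 TPM, and the cyclin genes Ccna2 and Ccnb1 at 52.0 ± 5.27 and 49.4 ± 4.87 TPM. Mki67, a marker of proliferation, was lower with 3.62 ± 1.32 TPM. Of the 16 genes with at least 1 CPM, 15 were highest in OCsCtr 1. The median deviation of the 16 from the mean of the 4 libraries was 0.15 on the log2 scale there. The share of all genes that were highest in OCsCtr 1 was not computed.

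By names and DNA-binding domains in the gene descriptions of the table, 317 genes were identified as transcription factors, and 166 were detected in all 4 libraries. This rule was set here and is incomplete, since it leaves out Fosl2, at 105 TPM as high as Nfatc1. A name alone was enough to pass, without a DNA-binding domain, so the rule can also admit genes that are not such factors. The ranking therefore covers only the genes so identified, and a high place in it, such as that of Btf3, does not show this function. The highest were Btf3 (640 ± 17.2 TPM), the AP-1 family gene Jdp2 (561 ± 24.4 TPM), which is known to promote osteoclast formation, and Spi1. Junb, an AP-1 gene, had 310, 294, 308 and 335 TPM, and the stress response genes Atf4 (148 ± 15.9 TPM) and Xbp1 (138 ± 5.13 TPM) and the metabolic regulator Esrra (131 ± 8.90 TPM) came next. Tfdp1 (114 TPM), Tcf25 (109 TPM) and Nfatc1 closed the 10 highest. Immediate early and heat shock genes, which can rise when cells are handled, held 584 ± 6.63 CPM, of which Junb was the highest gene, while Egr1 had 0.354 TPM and Fosb had 0.0280 TPM.

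Of 122 cytokine and chemokine genes, 47 were detected in all 4 libraries and 55 had under 3 counts in every one of them. Ccl9, a chemokine gene known to be high in osteoclasts, led with 1717, 1838, 1948 and 1644 TPM. Mif (961 ± 28.2 TPM), the progranulin gene Grn (518 ± 50.7 TPM) and Spp1, which encodes osteopontin (436 ± 35.9 TPM), followed. Pf4 (159 ± 32.9 TPM) and Ppbp (75.0 ± 16.8 TPM), both also genes of megakaryocytes, were among the 10 highest, with Pdgfb (121 ± 4.99 TPM), Tgfb1 (64.5 ± 4.36 TPM), Ccl6 (64.0 ± 11.1 TPM) and Vegfb (46.7 ± 3.04 TPM).

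Osteoclasts also send signals to osteoblasts. Of 13 coupling genes, 9 were detected in all 4 libraries, with a sum of 865 CPM. Sema4d, a semaphorin gene known to restrain osteoblasts, had 116, 119, 124 and 134 TPM, and Pdgfb and Cthrc1 (85.2 ± 8.14 TPM), which promote them, were next. Sphk1, the enzyme of the lipid signal S1P, had 14.7 ± 1.74 TPM. Bmp6 had 0 counts in all 4 libraries, and Slit3 had a single count in OCsCtr 1.

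Transcripts of other marrow cells were measured to describe what else the cultures could hold. Neutrophil genes held 520, 503, 354 and 482 CPM, with 13 of 13 detected, led by the calprotectin genes S100a9 (724, 658, 479 and 600 TPM) and S100a8 (328 ± 50.5 TPM) and the granule gene Ngp (79.7 ± 14.6 TPM). Cxcr2 was the lowest with 1.31 TPM. OCsCtr 3 was the lowest library for the sum. Whether these transcripts came from neutrophils or from other cells of the cultures was not tested. Dendritic cell genes held 401 CPM, of which Cd74 (270 ± 41.3 TPM) and other MHC class II genes, which macrophages also express, were the highest, and Xcr1 (0.175 TPM) the lowest. Megakaryocyte genes held 124, 104, 109 and 164 CPM, led by Pf4 and Ppbp, with Gp9 next at 7.23 ± 1.33 TPM.

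Eosinophil genes held 68.7 ± 7.07 CPM in these cultures, to which no eosinophils had been added, with 6 of 11 detected in all 4 libraries. Ccr3, the eotaxin receptor gene, had 37.3, 36.6, 39.8 and 31.3 TPM and carried most of this sum. Prg2, which encodes the major basic protein, had 9.41, 18.1, 15.1 and 9.63 TPM. Epx, the eosinophil peroxidase gene, had 0, 0.0882, 0.175 and 0 CPM, and Il5ra was the lowest with 0.0161 TPM. Ccr3 and Prg2 were thus detected in each library, whereas Epx had 0 counts in OCsCtr 1 and 4, 3 counts in OCsCtr 2 and 6 counts in OCsCtr 3.

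Lymphoid, erythroid and stromal genes were low. B cell genes held 62.7, 47.4, 35.1 and 89.8 CPM, mostly from Igkc (66.2, 28.9, 34.5 and 88.5 TPM) and Ighm (26.5 ± 10.0 TPM), and Vpreb1 and Igll1 stayed under 3 counts in every library. T cell genes held 5.24 CPM, with Trac at 2.47 TPM and with Trbc1, Cd8b1, Cd3g, Cd3e, Cd8a and Themis under 3 counts in every library. NK cell genes held 0.882 CPM, led by Nkg7 (1.10 TPM), with Eomes, Ncr1, Gzma, Gzmb and Prf1 under 3 counts. Erythroid genes held 3.96 CPM, led by Hba-a1 (4.04 TPM), with Klf1, Rhag and Slc4a1 under 3 counts, and mast cell and basophil genes held 4.02 CPM, led by Prss34 (1.82 TPM), with Cma1 and Tpsb2 at 0.

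Stromal genes held 69.9, 18.3, 19.1 and 37.8 CPM, led by Col1a1 (8.72, 1.06, 1.38 and 3.97 TPM) and Dcn (2.68 ± 0.353 TPM), while the osteoblast genes Bglap and Bglap2 had 0 counts and Ibsp stayed under 3 counts. OCsCtr 1 was the highest library for Col1a1 and for the sum. Endothelial genes held 23.3 CPM, led by Kdr (1.87 TPM), with Tek at 0. Adipocyte genes held 1.26 CPM, all from Fabp4 (0.558 TPM), which macrophages can also express, with Adipoq, Plin1, Cidec, Lep and Cfd at 0 counts. Each of these lists was thus far below the resorption list, and the neutrophil list was the highest among those for granulocytes, lymphoid, erythroid, stromal, endothelial and fat cells.

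**Figure D3:**
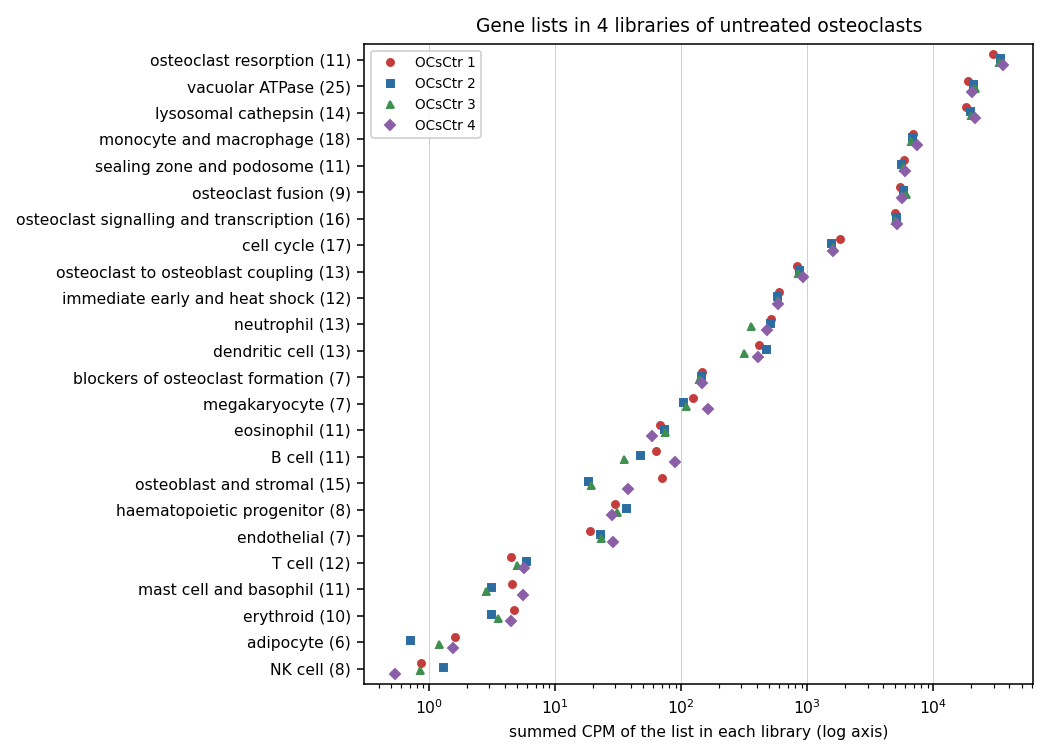
Summed CPM of 24 gene lists (number of genes in brackets) on a log axis, 1 point per OCsCtr library. The resorption list lies highest at 29736 to 35515 CPM, neutrophil genes at 354 to 520 CPM, and T cell, mast cell, erythroid, adipocyte and NK cell genes below 10 CPM in each library.

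Protein-coding genes took 96.98% ± 0.0104 of the counts, and 11954 of 21971 were detected in all 4 libraries. Processed pseudogenes took 1.80%, transcribed processed pseudogenes 0.313%, genes listed as rRNA 0.183%, miRNA genes 0.174% and lincRNAs 0.142%. On the TPM scale the protein-coding share was 84.9%, that of processed pseudogenes 6.59% and that of miRNA genes 6.01%. The last of these came mainly from Gm23935, a gene of 57 bases on chr16 with miRNA as biotype, which had 1707 CPM and 59244 TPM. Its level moved together with that of Lars2, which held 25.5 to 26.2% of the sum of both genes while the sum ranged from 1602 to 2797 CPM. As such short genes inflate TPM, genes under 200 bases were left out of the ranking. They remained in the total to which TPM were scaled, where Gm23935 took from 41509 TPM (OCsCtr 3) to 71770 TPM (OCsCtr 4). TPM of other genes are therefore lowered by it to an unequal degree between libraries.

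Of 6915 genes listed with a long noncoding biotype, 475 were detected in all 4 libraries. AI662270 was the highest with 366, 365, 387 and 334 TPM, followed by Cct6a (285 ± 19.9 TPM), a chaperonin gene that the table lists as a processed transcript, and Gpr137b-ps (251 ± 18.2 TPM). The others among the 10 highest were 1810058I24Rik, 2410006H16Rik, 4930430E12Rik, Tmem134, Gm26917, C330006A16Rik and Gm43351, with 97.5 to 41.7 TPM. Tmem134 and 2410006H16Rik are, like Cct6a, listed as processed transcripts. The biotype alone therefore does not show that a gene is noncoding. Malat1, a nuclear RNA that is abundant in many cells, had 4.75 TPM.

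For genes with pseudogenes of any kind, part of the level was listed at the copy. Pseudogenes were matched to parents by a shared protein accession in the gene descriptions. For 40 parent genes so matched the pseudogenes together held at least 100 CPM, and for 11 of these, mt-Co3 among them, the pseudogenes held more than the parent. Rps2 had 45.1 CPM against 1834 CPM on its pseudogenes, Rpl17 had 197 against 671 CPM and Rps18 had 60.8 against 408 CPM. Rpl26 is not among the 40, although its pseudogene Gm15772 had 1508 CPM, so the 40 is not a full count. Levels of all these genes, Rpl26 included, and of their copies are uncertain for the reason given for Atp6v0c.

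The 4 libraries were alike for most genes. Over 12269 genes that passed edgeR's filter on low counts, the common biological coefficient of variation was 12.7% and the median per gene 11.4%. Log2 CPM of pairs of libraries were correlated across genes with r between 0.991 and 0.995, a description of libraries in which genes are not independent. The counts of each pair differed by 9.79 to 26.1 times the sampling noise (chi-square per degree of freedom), so that no pair differed by sampling noise alone. The coefficient of variation (CV) of CPM fell with the level, from a median of 19.9% for genes of 1 to 10 CPM to 8.36% for 10 to 100 CPM, 4.92% for 100 to 1000 CPM and 4.20% for the 148 genes of at least 1000 CPM.

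Some genes were very even. Calm2, which encodes calmodulin, had 633, 637, 633 and 635 CPM, a CV of 0.337%. Rtn3 (0.398%), the GTPase gene Rac1 (0.430%), Ncln (0.462%) and the calcium-binding protein gene S100a6 (0.654%) followed among genes of at least 100 CPM. Ctsk, Acp5 and Mmp9 were less even, with CVs of 7.58%, 8.27% and 9.55% at levels where the median was 4.20%.

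The genes with the largest CV relative to the running median at their level were mostly mitochondrial. They were mt-Cytb, mt-Nd4, Oaz1-ps, mt-Co1, mt-Nd1, Sumo2, mt-Nd2, Gm10123, Col1a1 and mt-Nd5, with 17.1 to 7.61 times the running median. mt-Co1, a subunit gene of cytochrome c oxidase, had 5358, 2066, 2195 and 1410 CPM, and mt-Cytb had 2519, 827, 891 and 620 CPM. OCsCtr 1 was the highest and OCsCtr 4 the lowest library for both. The 13 mitochondrial protein genes together held 13013, 5254, 5651 and 3854 CPM. Of the CPM of mt-Co3 with its near-identical copy Gm28437 on chr1, 52.5% lay on the copy, and of mt-Atp6 with Gm10925, 62.9% did, so the levels of these 2 genes are uncertain. In all, 7 listed nuclear copies of mitochondrial genes on chr1 held 268 CPM. The levels of other mitochondrial genes, and their sum, can therefore be affected too. Among the 7904 genes of at least 10 CPM, 132 had a CV over 3 times the running median, and 75 of these were highest in OCsCtr 4 and 37 in OCsCtr 1.

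**Figure D4:**
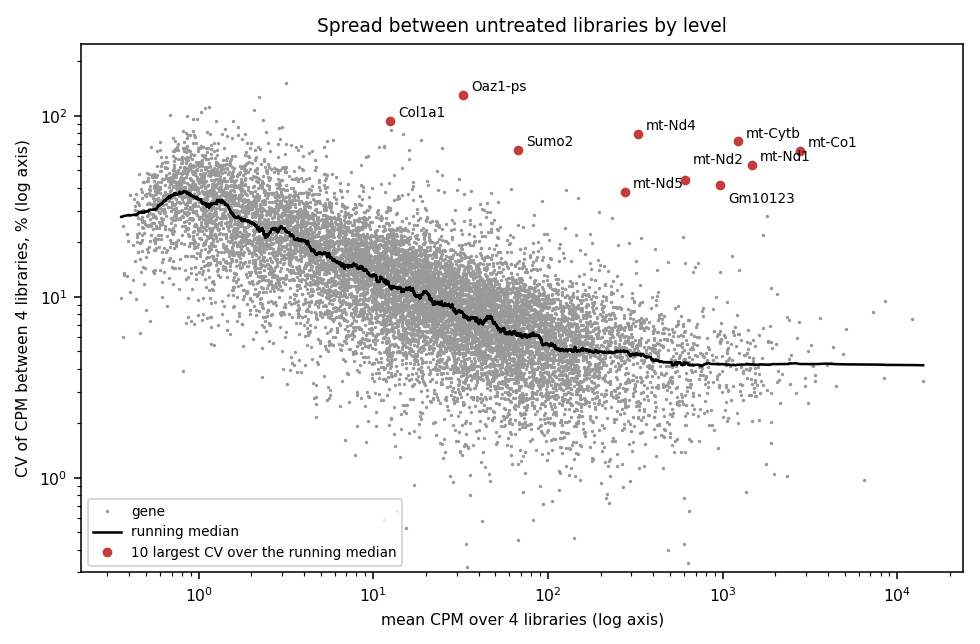
CV of CPM between the 4 OCsCtr libraries (%) against mean CPM for genes past the filter on low counts, both axes logarithmic, with the running median as a line. The 10 genes with the largest ratio of CV to the running median are in red, and 6 of them are mitochondrial.

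Among the uneven genes, Ppia and its copy Gm10123 changed places, whereas Oaz1-ps and Oaz1 did not. Ppia, which encodes cyclophilin A, had 1493, 2551, 1577 and 1566 CPM and Gm10123 had 1101, 369, 1215 and 1173 CPM, with OCsCtr 2 apart in opposite directions. The CV of their sum was 4.89%, against 28.1% and 41.5% for each gene. Oaz1-ps had 13.5, 96.7, 11.6 and 9.34 CPM, again with OCsCtr 2 apart, while Oaz1 itself had a CV of 0.841%. The sum of Oaz1 and Oaz1-ps was highest in OCsCtr 2 with 1434 CPM, and its CV was 2.54%. Whether reads of the copies were assigned differently in OCsCtr 2 was not tested.

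Sets of genes also moved together. Interferon-stimulated genes held 930, 869, 1014 and 1453 CPM, and 23 of 24 with at least 1 CPM were highest in OCsCtr 4, for example Irf7 with 104, 86.4, 119 and 198 CPM. Genes of stromal matrix and contraction held 230, 59.0, 62.2 and 136 CPM, and 15 of 15 were highest in OCsCtr 1. Both lists were drawn up after the uneven genes had been seen, so their counts describe these libraries and support nothing further. Of the monocyte and macrophage genes, 15 of 18 were also highest in OCsCtr 4, with a median deviation of 0.22 on the log2 scale, and of the cathepsin genes 10 of 13 were, with 0.15. B cell and megakaryocyte sums were highest in OCsCtr 4 as well. In lists of other kinds, 10 of 19 glycolysis genes and 5 of 19 vacuolar ATPase genes were highest there. The share of all genes that were highest in OCsCtr 4 was not computed. The counts are therefore not shown to be particular to these lists. The part of other cells in these differences was not tested. For the resorption list, the median deviation of its members from the mean of the 4 was -0.13 on the log2 scale in OCsCtr 1, and the sum without that library was 34113 CPM.

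**Figure D5:**
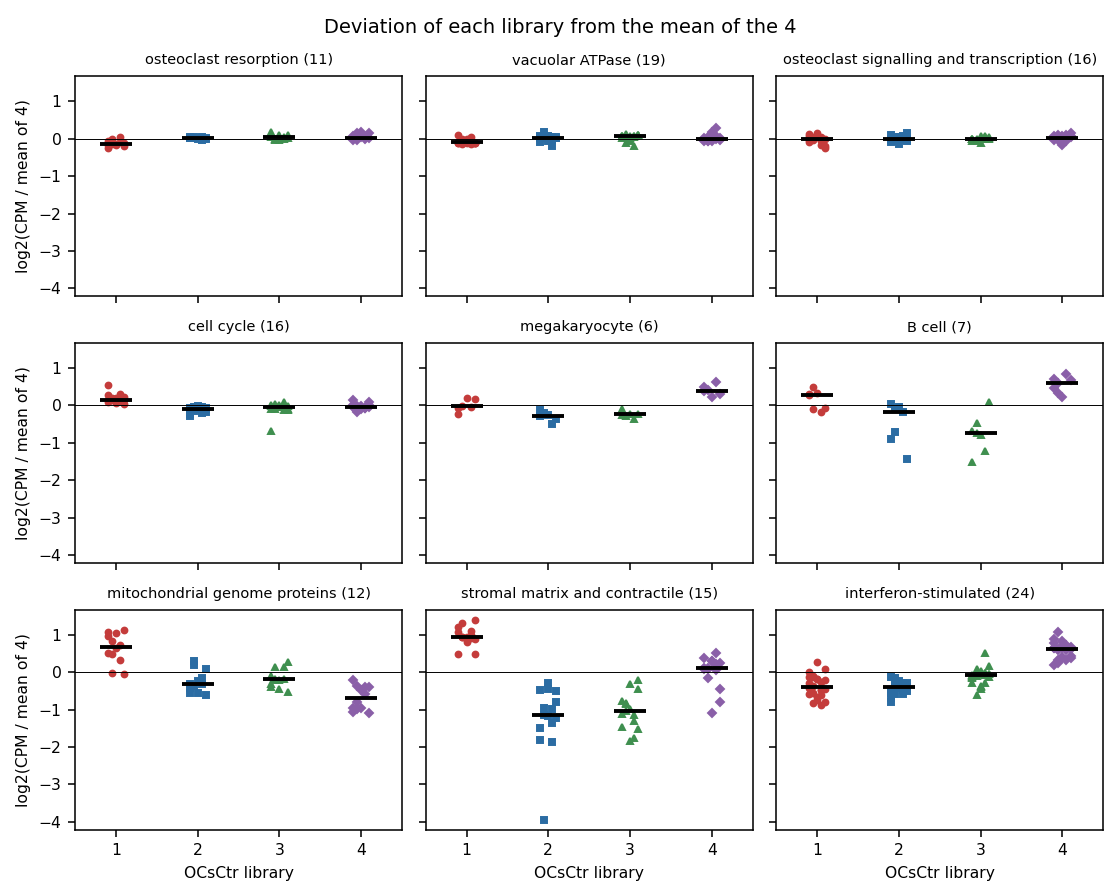
Deviation of each OCsCtr library from the mean of the 4, as log2 of CPM over mean CPM, for members with at least 1 CPM of 9 gene lists (number in brackets), with 1 point per gene and a bar at the median. Osteoclast lists stay close to 0, whereas mitochondrial and stromal genes are high in OCsCtr 1 and interferon-stimulated genes in OCsCtr 4.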

How the data were processed

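The authors cleaned paired-end reads with fastp, used HISAT2 2.0.5 for alignment to GRCm38/mm10 and featureCounts for counting, and the deposited values are these counts per gene, whole numbers that were neither scaled nor filtered. Libraries had been made from total RNA with a NEBNext Ultra kit. The annotation release, the strand setting and the treatment of reads mapping to several places are not given in the sources used here, so levels of overlapping genes and of near-identical copies are uncertain. The same table holds the other 8 libraries of the series, which were not used.

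CPM were computed from the total counts of the table, and TPM from its length column. Of the 47643 gene identifiers, 47224 (99.1%) are in GENCODE vM21, from which exon unions and overlapping genes were taken, and promoters came from RefSeq (GRCm38.p6). Promoter windows of Mmp9, Atp6v1b2, Atp6v0d2 and Dcstamp were not used here. Genes past filterByExpr (minimum count 10) were scaled by TMM (factors 0.987 to 1.02) and their dispersion was estimated with edgeR 4.0.16 on an intercept-only design in R 4.3.3. DESeq2 1.42.0 served as an alternative, and tables and figures were made with Python 3.11.15, pandas 2.3.3 and matplotlib 3.10.9. The scripts were tested on simulated data. Values are the mean ± SD over the 4 libraries, and no test between groups was run, because only 1 group was described. Single libraries that stand apart were looked for with Dixon's critical value.

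Genes were named by rule: the 10 highest by CPM and by TPM (at least 200 bases), the 10 highest transcription factor, cytokine and long noncoding genes by TPM, the highest, the lowest and the undetected members of gene lists, the 10 genes of at least 10 CPM with the largest CV relative to the running median, the 5 of at least 100 CPM with the smallest CV, and sex-linked genes. Gene families, pseudogene pairs, further osteoclast-associated genes, glycolysis, interferon-stimulated genes and stromal matrix genes, and single genes outside the rule, were added after their values were seen. Some members that the rule names are not reported here. The members and lists were chosen with earlier results of these data known. Alternatives were other scalings, detection from 10 counts, counts thinned to the smallest library, exon unions as length, overlapping or mitochondrial genes left out, shares of TPM, no filter, DESeq2 dispersions and each library left out.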

Additional observations from a re-analysis of the deposited data

Results flagged for a closer look

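For 242 quantities, 53 of them sums, shares and list levels and 189 of them CPM of named genes with counts, the distance of the highest or lowest library to the nearest other was compared with the range of the 4 libraries (Dixon's 95% critical value for 4 samples). Chance alone singles out about 1 in 20 groups of unselected, continuous values, and 23 of the 242 quantities exceeded the value. These numbers cannot be set against each other. Some genes had been named for their large CV or added after their values were seen. For a gene with counts in a single library alone, the distance always equals the range. OCsCtr 1 stood apart for further osteoclast-associated genes, where it was the lowest library with 15606 summed CPM, for Gm15487, where it was the lowest with 1274 CPM, and for the mitochondrial genes mt-Cytb (2519 CPM) and mt-Nd4 (716 CPM) and the cell cycle genes Ccna2 (123 CPM) and Cdk1 (120 CPM), where it was the highest. OCsCtr 2 stood apart for Ppia (2551 CPM) and Rpl17 (283 CPM) as the highest library, for Gm10123 (369 CPM) as the lowest, and for Oaz1-ps (96.7 CPM) as the highest. OCsCtr 4 was the lowest library for Fos (102 CPM) and the highest for Mif (281 CPM), Sirpa (626 CPM), Cxcr2 (2.39 CPM), Prss34 (2.17 CPM) and Atp6v1c2 (0.157 CPM). At 1 to 4 counts, a single library differed from libraries at or near 0 for Cd3g (0.0357 CPM), Eomes (0.0357 CPM) and Slit3 (0.0357 CPM) in OCsCtr 1, Il5ra (0.118 CPM) and Klf1 (0.0588 CPM) in OCsCtr 2, Ibsp (0.0584 CPM) in OCsCtr 3 and Vpreb1 (0.0315 CPM) in OCsCtr 4.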

How the results depend on the processing

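Across 14 results, 106 values were computed under other settings. Of these, 95 stayed within a limit, which was 1 SD between libraries for levels and shares, 1.5 times for counts of genes, and 1 SD of the values with a library left out for the coefficient of variation, and 11 went beyond it. The genes detected per library numbered 13265 from 10 counts on, 12269 past the filter and 14946 with thinned counts, against 15092, changes far larger than the SD between libraries though within 1.5 times. The level of Ctsk was 18078 TPM with exon unions as length, 26634 TPM with overlapping genes left out and 17197 TPM with genes under 200 bases left out, a setting added after the data were seen, against 15953 TPM. With overlapping genes left out, 5 of the 10 highest genes by CPM were shared with the original list, the vacuolar ATPase sum was 12429 CPM against 20213 CPM, and the monocyte and macrophage sum was 5508 CPM against 6910 CPM. The protein-coding share was 84.9% of TPM and 97.07% of counts without mitochondrial genes, and the mitochondrial share was 2.11% of TPM against 0.812% of counts. The median biological coefficient of variation was 19.4% without the filter on low counts, against 11.4%, and 10.8 to 12.2% with each library left out. The cause of these changes was not tested, other than that the settings use other lengths, genes or denominators. Low genes are limited by depth, since 3 counts correspond to about 0.1 CPM. No paired analysis was possible because only 1 group was described and no groups were compared.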
